A study of Arabidopsis thaliana with 4 samples.

Results

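The comparison described here is between the systemic and the local leaves of control plants of Arabidopsis thaliana, measured by RNA sequencing. Its members are the 3 count columns of the control systemic sample and the 3 count columns of the control local sample, 6 of the 12 columns of the series, joined gene by gene over 32982 genes. Each column was treated as 1 library. Control systemic leaves, which the labels call systematic tissue, carry no treatment label of their own, and control local leaves had been given water and no Dox. Application of water and leaf position therefore cannot be told apart in this comparison. The other 2 groups are systemic leaves of Dox-treated plants and local leaves given Dox at 25 um/g, a unit printed here as the labels have it. Their position comparison is set beside the control one. Their libraries also entered the main fit, which estimated 1 spread from all 12 libraries. All plants were grown on agar medium with sucrose under long days. The sources used here give no ecotype, no plant age, no leaf number, no hour of harvest and no statement of how many plants stand behind a library. The p-values of unpaired fits therefore speak only of how far libraries of a group lie from each other. Where libraries were paired by column number, they speak of how far the differences within pairs lie from each other. Either spread may be technical.

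In a systemic response, a signal from the treated (local) leaves changes the state of leaves that were not treated (systemic). The leaves of a rosette are made in sequence by the shoot apex. Young leaves still divide, lay down stomata and build chloroplasts, while older leaves export sugar and recycle nitrogen, so that leaves of one plant can differ before any treatment. Transcript levels are given as CPM, library counts scaled to a common size, which are not divided by transcript length and are therefore compared between leaves of one gene and not between genes. A log2 difference of 1 is a doubling in systemic over local leaves. In bulk leaf RNA, more cells of a type and more RNA per cell cannot be told apart.

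Total counts ran from 18981328 to 21141229 in the 3 systemic libraries and from 19468480 to 20146006 in the 3 local libraries, and 1 CPM stood for 16.9 to 23.0 reads. The 6 libraries did not separate first by leaf position. The leading principal component, with 47.8% of the variance, put both libraries numbered 3 at 45.7 (systemic) and 82.7 (local), apart from the libraries numbered 1 and 2, which lay at -38.3 and -50.1 (systemic) and at -12.0 and -28.1 (local). All 3 same-numbered pairs deviated from their group means together, and the column number was also used as a block. Number 3 stood apart in both positions, and deviations of 3 libraries sum to 0, so numbers 1 and 2 tend to one side. Systemic 1 with local 2 (r = 0.18) and systemic 2 with local 1 (r = 0.22) also deviated together. These deviations therefore cannot establish which libraries of numbers 1 and 2 belong together, and the block fit takes that pairing as given. Results that rest on the libraries numbered 3 are given with and without them below. The tissue label was checked against marker genes. The 5 leaf mesophyll markers summed to between 26769.8 and 32155 CPM in systemic and between 21029.5 and 24482 CPM in local libraries. The 8 root markers reached at most 0.305 CPM in systemic and 0.191 CPM in local libraries as a sum, with RHD6, EXPA7, EXPA18 and IRT1 at 0 in all 6. The 10 shoot apex markers summed to at most 1.67 CPM in systemic and 1.23 CPM in local libraries, with WUS, CLV3 and UFO at 0. The 8 flower markers summed to at most 6.20 CPM in systemic and 4.24 CPM in local libraries, with AP1 and LFY at 0, and the 5 trichome markers to at most 5.64 CPM in systemic and 5.0 CPM in local libraries.

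Without a block, edgeR's quasi-likelihood fit of all 12 libraries left none of 19403 genes past an adjusted p of 0.05 (0% higher and 0% lower). The smallest adjusted p was 0.0707. Before adjustment, 975 genes higher and 359 genes lower in systemic leaves had p under 0.05, 5.02% and 1.85% of those tested. DESeq2 called 48 higher and 5 lower (0.243% and 0.0253% of 19760), and limma with voom weights called 0 in both directions. The 6 control libraries alone, also without a block, gave 0 calls in both directions over 18776 genes (smallest adjusted p = 0.769, edgeR). A block over all 12 libraries, which also paired the Dox libraries by number, gave 0 calls in control plants (smallest adjusted p = 0.194, edgeR). With the column number as a block, in the 6 control libraries alone, edgeR called 44 genes higher and 26 lower in systemic leaves (0.229% and 0.135% of 19229). These 70 calls lie close to the threshold, with adjusted p between 0.0436 and 0.0485. They depend on the processing: with DESeq2's size factors or with total counts alone in the same block fit the count was 0 in both directions. Without pair 1 or without pair 3 the count was also 0, and without pair 2 it was 244 higher and 206 lower. On the same 6 libraries and pairing, DESeq2 called 306 higher and 571 lower, and limma voom 56 and 54. All 70 were among the calls of both, which are not independent of the edgeR fit. In what follows, a gene is said to have risen or fallen only where it passed with the block in the 6 control libraries. Other values are levels and differences. The edgeR values without the block come from all 12 libraries, so these fits differ in libraries as well as in the block. The column numbers matter here because systemic and local libraries of one number moved together, so a difference within pairs can be steady while the 3 systemic and the 3 local values overlap. Free of any model, 1559 genes had all 3 systemic libraries above all 3 local libraries (8.03% of those tested) and 963 had all 3 below (4.96%), which are the background shares for counts of non-overlapping genes below.

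The genes that rose in systemic leaves with the block ranged in log2 difference from 0.926 to 5.0, with a median of 1.39. The gene with the smallest p in the unpaired fit was AT7SL-1, which encodes the RNA of the signal recognition particle that guides new secretory proteins to the endoplasmic reticulum. Its level was 40.2, 36.2 and 29.8 CPM in systemic leaves and 8.88, 6.84 and 11.5 CPM in local leaves. Every systemic library stood well above every local one, and the log2 difference was 1.97 ± 0.24 (SE; adjusted p = 0.0707 without the block, 0.0436 with it, edgeR). Other copies of 7SL RNA are nearly identical, so the counting may have split reads between them.

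AT5G21940, annotated as a protein resembling a hybrid histidine kinase, stood at 189.7, 182 and 152 CPM in systemic leaves, against 59.3, 63.6 and 40 CPM in local leaves, a log2 difference of 1.71 ± 0.15 with the block (SE; adjusted p = 0.0436, edgeR). PME5 encodes a pectin methylesterase, an enzyme that strips methyl groups from cell wall pectin. It had 53.8, 98.2 and 124 CPM in systemic leaves and 12.7, 24.4 and 45.6 CPM in local leaves. The 2 groups did not overlap, and within each position the library numbered 3 was highest. For OXS3, a nuclear protein tied to tolerance of oxidative stress, systemic libraries gave 18.2, 29.9 and 10.5 CPM and local libraries 5.87, 6.79 and 2.02 CPM, with the library numbered 3 lowest in both positions. Both rose with the block, by log2 1.84 ± 0.17 for PME5 and 2.03 ± 0.20 for OXS3.

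Several of the other risen genes have no characterised product. AT1G11850 (8.59, 17.4 and 20.9 CPM in systemic leaves, 1.72, 5.33 and 6.82 CPM in local leaves) is an uncharacterised protein. AT3G15630, annotated only as a plant protein, had 124, 103 and 61.8 CPM in systemic and 47.4, 46.3 and 19.8 CPM in local leaves, and AT3G54880, a zinc finger protein by annotation, 89.3, 80.8 and 65.5 CPM in systemic and 27, 36.8 and 23.5 CPM in local leaves. Each was higher in every systemic library than in any local one. AT4G05070, of the wound-responsive family, also rose, at 76.5, 58.4 and 52 CPM in systemic leaves against 33.1, 26.6 and 21.7 CPM in local leaves. ACA2, an alpha carbonic anhydrase that interconverts carbon dioxide and bicarbonate, was a gene of low level, with 4.63, 6.09 and 3.88 CPM in systemic and 0.287, 0.802 and 0.356 CPM in local leaves (log2 3.39 ± 0.37 with the block). AT2G33850, an E6-like protein, had 4.43, 15.4 and 7.55 CPM in systemic and 0.334, 2.31 and 0.297 CPM in local leaves. AT3G05600, an alpha/beta hydrolase singled out after its values were seen as the call with the largest difference, had 280 reads over the 3 systemic libraries and 10 reads over the 3 local ones, 2 of which had none.

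A few other risen genes, named after their values were seen, belong to mitochondria and plastids. SDH8, a subunit of succinate dehydrogenase in the respiratory chain, had 41.9, 27.5 and 37.5 CPM in systemic and 16, 9.53 and 18.8 CPM in local leaves. TIM9, a small chaperone of protein import into mitochondria, had 36.9, 29.9 and 40.2 CPM in systemic and 19.2, 16.4 and 20.6 CPM in local leaves, and hemf2, annotated as a coproporphyrinogen oxidase of heme and chlorophyll synthesis, had 26.6, 32.6 and 24.3 CPM in systemic and 11.2, 16.6 and 12.3 CPM in local leaves. DI21, a drought-induced gene, had 10.6, 18.1 and 18.8 CPM in systemic and 4.16, 5.24 and 4.81 CPM in local leaves. None of the 4 overlapped between positions.

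Transcripts of ribosomal proteins formed a group among the risen genes that was picked out after the calls were seen. Of 349 tested genes whose RefSeq product names a ribosomal protein, 6 rose and none fell, where 0.229% of all genes rose. The 349 had a median transcript length of 997 bases, against 1740 for all genes tested. Their median log2 difference was 0.38, with 321 above 0, and 176 were higher and 4 lower without overlap. The 6 encode very small proteins of the large and small subunits: 4 of the L41 family, AT2G25210 of the L39 family and AT4G33865 of the S29 family. AT3G08520, an L41 gene, had 32, 34.6 and 39.6 CPM in systemic and 12, 13.8 and 20.1 CPM in local leaves, and AT2G25210 had 45.1, 33.2 and 52.8 CPM in systemic and 14.5, 15 and 26.8 CPM in local leaves. Systemic values exceeded local values in each pair for both.

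The fallen genes ranged from 0.968 to 2.19 in the size of the log2 difference, with a median of -1.39. CBF2, a transcription factor that switches on cold-response genes, headed them. Its level was 6.98, 3.0 and 10.9 CPM in systemic leaves and 26.3, 20.7 and 41.6 CPM in local leaves, and every systemic library lay below every local one. The log2 difference was -2.09 ± 0.42 without the block and -2.19 ± 0.21 with it (adjusted p = 0.0436, edgeR). CBF2 lies in a tandem family of close relatives, between which reads may be divided. Products named as integrase-type DNA-binding, DRE binding or ethylene response factor gave 62 tested genes, a name-matched part of the AP2/ERF family of CBF2. Of these, 5 fell and none rose, where 0.135% of all genes fell, a group again picked after the calls were seen. The median log2 difference of the 62 was -0.22, with 42 below 0, and 4 were lower and 3 higher without overlap. The others are DREB2A, DREB26, AT1G33760 and AT1G77640. DREB2A, a factor of the drought and heat response, had 21, 10.4 and 36.6 CPM in systemic and 37.5, 21.2 and 93.7 CPM in local leaves. Its positions overlapped, with both libraries numbered 3 high, while within each number the systemic library was lower. AT1G33760 had 65, 35 and 154 CPM in systemic and 173, 155 and 339 CPM in local leaves, without overlap, and DREB26 had 70.2, 63.1 and 156 CPM in systemic and 180.0, 171 and 303 CPM in local leaves, also without overlap.

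JAL34, a mannose-binding jacalin-related lectin, fell to 21.7, 8.23 and 26.2 CPM in systemic leaves, against 69.4, 45.9 and 68.2 CPM in local leaves (log2 -1.83 ± 0.22 with the block). An uncharacterised protein, AT2G36220, fell likewise, with 14.4, 12.6 and 24.5 CPM in systemic and 44.3, 40.3 and 53.3 CPM in local leaves. In both genes the 2 positions were separate. A further set of fallen genes was separated by position only within pairs. GPAT3, a glycerol-3-phosphate acyltransferase of lipid synthesis, had 82.1, 53.5 and 408 CPM in systemic leaves and 231, 162 and 1022 CPM in local leaves. The systemic library numbered 3 exceeded both local libraries numbered 1 and 2, yet each systemic value was below the local value of its own number, with log2 differences of -1.49, -1.58 and -1.32 within the pairs. WRKY48, a WRKY-family regulator, showed the same arrangement, with 17, 8.97 and 61.2 CPM in systemic and 40, 28.8 and 130.1 CPM in local leaves. So did CYP707A1, an enzyme that breaks down abscisic acid, with 6.56, 6.31 and 24.9 CPM in systemic and 12.8, 16 and 61.8 CPM in local leaves. AT1G07160, a protein phosphatase 2C, AT1G20823, a RING-type protein, and EXL4, an EXORDIUM-like protein, fell with log2 differences of -1.57 ± 0.18, -1.39 ± 0.17 and -1.53 ± 0.19 in the block fit, and for all 3 the library numbered 3 was highest in both positions. Named after their values were seen, PUB23, a ubiquitin ligase that damps immune signalling, had 102, 52.4 and 215 CPM in systemic and 235, 113 and 473 CPM in local leaves, and AGO3, an ARGONAUTE protein that binds small RNAs, had 7.97, 3.74 and 48.4 CPM in systemic and 40.9, 23.8 and 111 CPM in local leaves. Both fell, again with overlap between positions and none within pairs.

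**Figure D1:**
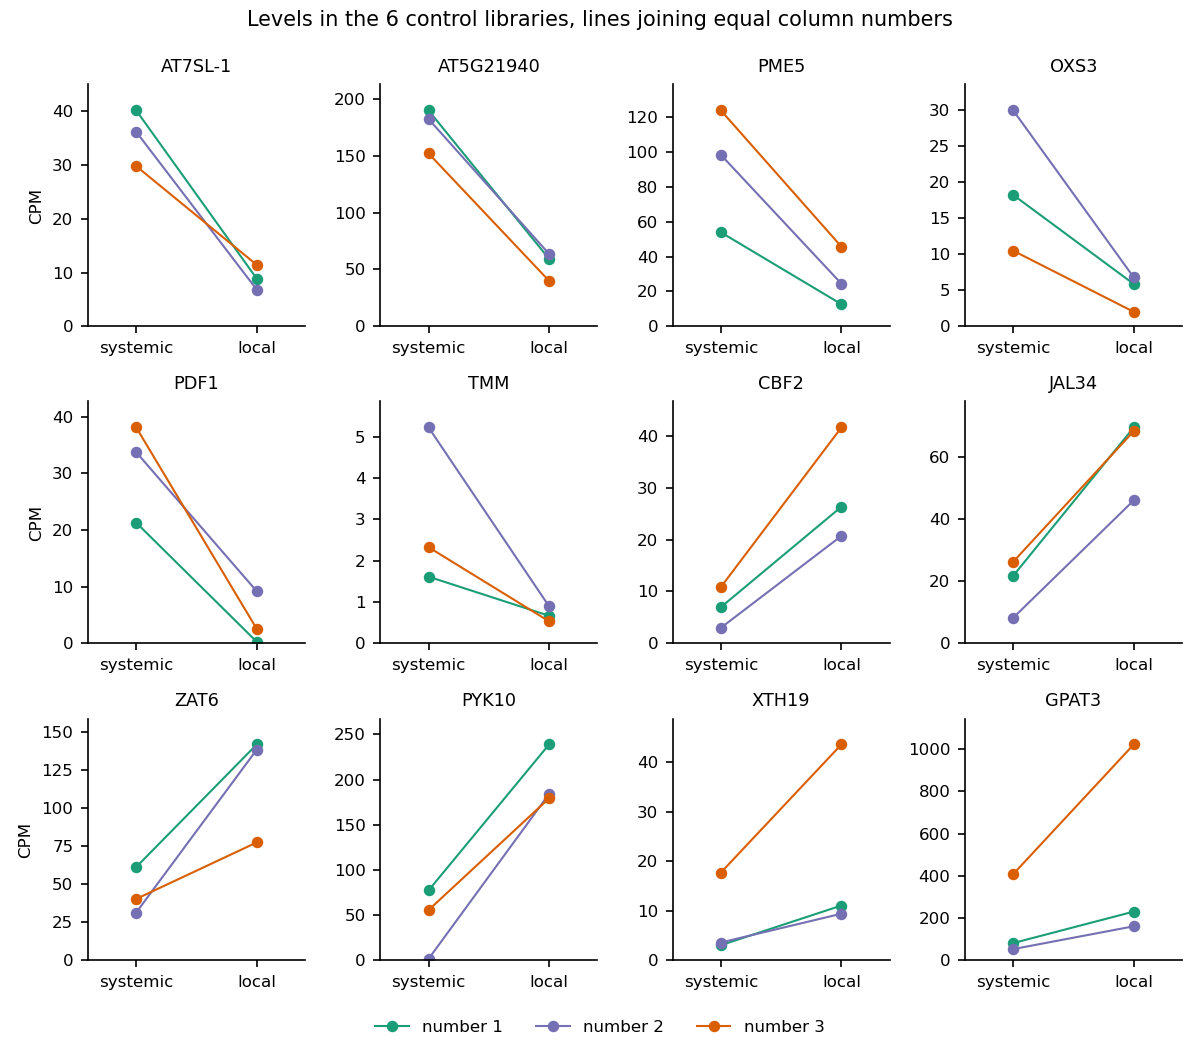
Levels (CPM, linear axes from 0) of 12 genes in the 3 systemic and the 3 local libraries of control plants, with lines joining libraries of equal column number. AT7SL-1, AT5G21940, PME5, OXS3, PDF1 and TMM were higher in systemic leaves in every pair and CBF2, JAL34, ZAT6, PYK10, XTH19 and GPAT3 lower; in XTH19 and GPAT3 the libraries numbered 3 stand above the rest in both positions.

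Beyond the calls, the genes with the largest non-overlapping differences at 10 CPM or more, named here where they passed in neither edgeR fit, include several with known roles. PDF1, a protein of the outermost cell layer of young organs, had 21.3, 33.7 and 38.1 CPM in systemic leaves and 0.287, 9.20 and 2.55 CPM in local leaves (log2 2.94 ± 1.17; adjusted p = 0.0777 with the block, edgeR). MIOX2, a myo-inositol oxygenase that starts one route to cell wall sugars, had 201, 274 and 341 CPM in systemic and 11.9, 103 and 96.6 CPM in local leaves, where the library numbered 1 was far below the other 2. NEET, an iron-sulfur protein of chloroplasts and mitochondria, stood at 24.8, 13 and 40.1 CPM in systemic and 10.5, 1.27 and 9.97 CPM in local leaves. Their differences are large but so is the spread within each position, with standard errors of 0.79 and 0.78 on log2 differences of 1.95 and 1.85. On the low side stood UGT73B3, a glucosyltransferase of stress metabolism, with 7.13, 7.66 and 6.72 CPM in systemic and 18.6, 12.6 and 33.8 CPM in local leaves (log2 -1.59 ± 0.36). UGT73B3 is one of the 5 genes that DESeq2 called lower without the block (adjusted p = 0.0292). Also low was ZAT6, a zinc finger repressor induced by stress, with 61.4, 31.5 and 40.4 CPM in systemic and 142, 139 and 77.6 CPM in local leaves (log2 -1.43 ± 0.43).

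Gene lists by role were then described by their medians and counts. Across all 19403 genes the median log2 difference was -0.01, and 9574 genes (49.3%) were above 0. Genes of the stomatal lineage, which act in the young epidermis to set where stomata form, stood higher in systemic leaves. Of 12 tested members, 11 were above 0 and 8 had no overlap between positions, with a median log2 difference of 1.62 (without the pair numbered 3, 1.42). None passed with the block, and TMM passed in DESeq2 (adjusted p = 0.0456). TMM, the receptor-like protein that keeps stomata spaced, had 1.61, 5.22 and 2.33 CPM in systemic leaves and 0.669, 0.896 and 0.534 CPM in local leaves. EPF1, the peptide signal that acts through TMM, had 0.625, 1.65 and 1.09 CPM in systemic and 0.382, 0.283 and 0.237 CPM in local leaves. SDD1, a protease that limits stomatal number, had 0.312, 1.87 and 1.19 CPM in systemic and 0.0955, 0.236 and 0.178 CPM in local leaves, on 72 reads in the 3 systemic and 10 reads in the 3 local libraries. SPCH, the factor that starts the lineage, overlapped between positions, with 0.260, 2.87 and 1.24 CPM in systemic and 0.525, 0.472 and 0 CPM in local leaves. All of these are low levels, and the systemic library numbered 2 was the highest of the 6 for each of the 4. Markers of mature guard cells did not follow: their median was 0.01, and their summed level was 194 to 204 CPM in systemic and 289 to 377 CPM in local libraries. CYP86A2, a cutin enzyme counted among those markers, accounted for much of that, with 99.9, 76.3 and 123 CPM in systemic and 199, 206 and 215 CPM in local leaves.

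Cell division genes stood in the same direction, 21 of 23 above 0 with a median of 0.74 (0.48 without the pair numbered 3), 3 of them without overlap and none called. CDC20.1, an activator of the anaphase-promoting complex, had 6.14, 13.2 and 15.6 CPM in systemic and 3.63, 6.08 and 5.70 CPM in local leaves. CYCB1;3, a mitotic cyclin, had 1.46, 2.61 and 2.84 CPM in systemic and 0.525, 1.70 and 0.831 CPM in local leaves, where the systemic library numbered 1 lay below the local library numbered 2. The type A response regulators, which cytokinin induces and which dampen its signal, were above 0 in 9 of 9 members (median 1.0, and 1.31 without the pair numbered 3). ARR7 rose with the block (log2 1.35 ± 0.19, adjusted p = 0.0443, edgeR), at 16.2, 21.5 and 42.8 CPM in systemic leaves and 4.49, 10.5 and 18.3 CPM in local leaves. Its positions overlapped and its pairs did not differ in direction. ARR9 had 7.76, 15.4 and 10.3 CPM in systemic and 3.73, 5.38 and 7.65 CPM in local leaves, with no overlap.

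The SAUR genes, small auxin-induced proteins of cell expansion, were above 0 in all 13 tested members, with a median of 1.63. That median was unevenly spread: the pair medians on the log2(CPM + 0.5) scale were 2.47, 0.68 and 0.35 for the numbers 1, 2 and 3. None of the 13 had positions without overlap. SAUR19 had 7.45, 5.83 and 0.155 CPM in systemic and 1.0, 1.93 and 0.119 CPM in local leaves, and AT5G18030, another member, had 16.7, 11.2 and 0.465 CPM in systemic and 1.77, 4.53 and 0.237 CPM in local leaves. Both libraries numbered 3 were near 0, and 12 of the 13 members were lowest in number 3 in both positions. The members share sequence closely, so their reads may be divided between copies. Regulators of leaf size such as GRF1 and ANT showed no common direction, with 9 of 14 above 0 and a median of 0.07. Leaf phase and flowering factors had a median of 0.11; among them SPL9, which promotes the adult leaf phase, had 2.55, 6.92 and 3.57 CPM in systemic and 2.05, 2.31 and 1.78 CPM in local leaves, and FLC, the flowering repressor, had 9.95, 6.70 and 6.57 CPM in systemic and 15, 11.6 and 13 CPM in local leaves, each without overlap. Senescence genes had a median of -0.17 over 15 members, none called, and -0.52 without the pair numbered 1.

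**Figure D2:**
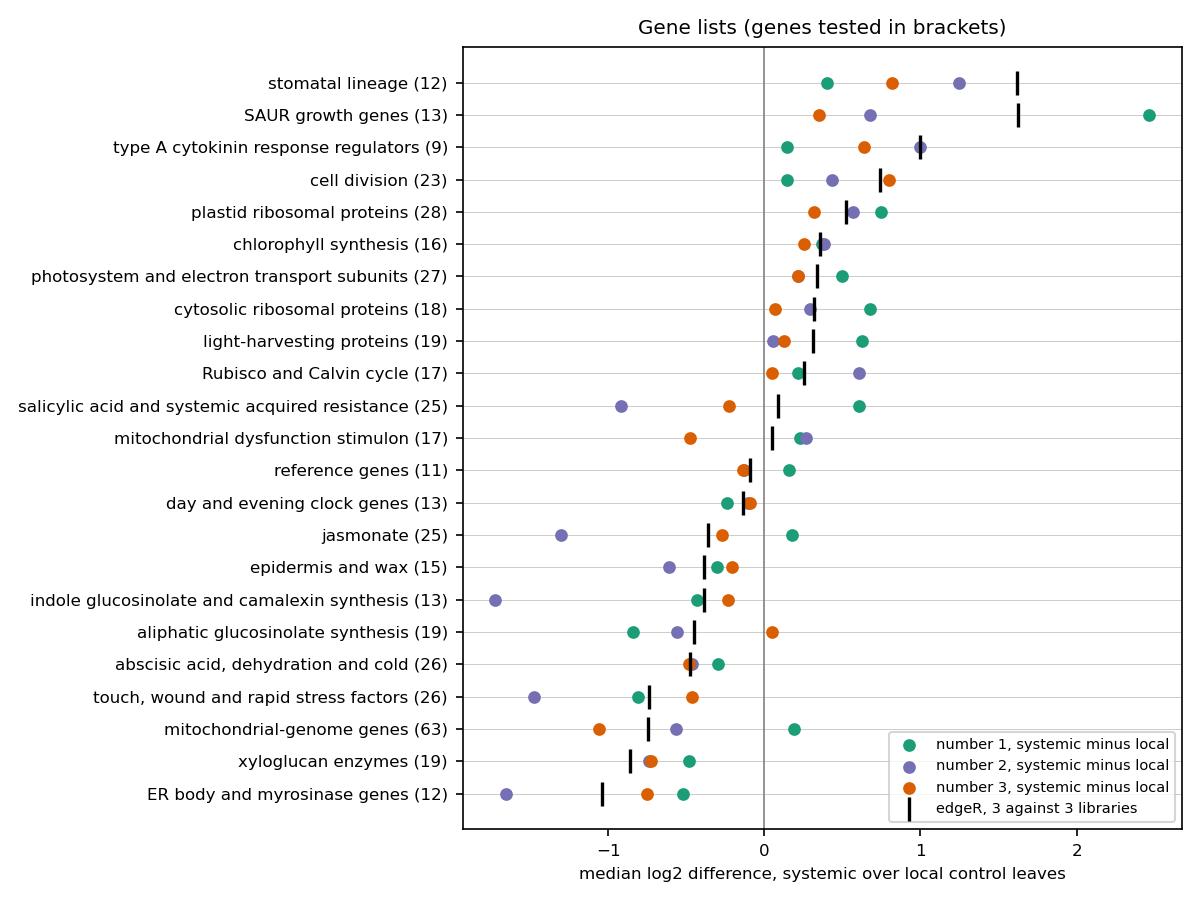
Median log2 difference, systemic over local leaves of control plants, of 23 gene lists (tested genes in brackets): coloured points are the medians within each number on the log2(CPM + 0.5) scale, which shrinks genes of low level, and black bars are edgeR medians. The stomatal lineage, SAUR, response regulator and cell division lists lie right of 0 in all 3 pairs, and the touch, xyloglucan and ER body lists lie left of 0 in all 3; the salicylic acid, jasmonate and mitochondrial-genome lists change side between pairs.

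Chloroplast and ribosome genes stood higher in systemic leaves by smaller amounts. Plastid ribosomal proteins, which translate the chloroplast's own messages, were above 0 in all 28 tested members, and 27 of the 28 had no overlap between positions against a background of 8.03%. Their median log2 difference was 0.52 (0.64 without the pair numbered 3), with members from 0.34 to 0.74. None was called by edgeR, and 2, PRPL28 and EMB3105, were called by DESeq2 without the block. With the block DESeq2 called others, among them AT5G47190 and AT5G65220 (adjusted p = 0.00523 and 0.00594, DESeq2). The pair medians were 0.75, 0.57 and 0.32. PRPL28 had 69.2, 87.4 and 81.7 CPM in systemic leaves and 43.7, 39.1 and 59.8 CPM in local leaves (log2 0.74 ± 0.17). EMB3105, a large-subunit protein of the L18 family, had 284, 296 and 280.0 CPM in systemic and 154, 187 and 197 CPM in local leaves (log2 0.68 ± 0.17). Every systemic value lay above every local value in both genes. Of the cytosolic ribosomal proteins, all 18 were above 0 with a median of 0.32 and 10 without overlap. RPL24A, which DESeq2 called higher (adjusted p = 0.0410), had 126, 128 and 120.1 CPM in systemic and 67.7, 83.4 and 89.2 CPM in local leaves, and PFL, which encodes ribosomal protein S18, had 109, 112 and 131 CPM in systemic and 53.4, 79.8 and 82.8 CPM in local leaves. In a wider set of 55 ribosomal protein genes chosen by their RefSeq product after the data were seen, 52 were above 0 (median 0.49).

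Nuclear photosynthesis genes stood modestly higher. All 27 photosystem and electron transport subunits were above 0 (median 0.34), and 16 had no overlap. PSAK, a small subunit of photosystem I, had 1709, 1549 and 1604 CPM in systemic and 962, 1053 and 1133 CPM in local leaves (log2 0.63 ± 0.28). All 17 genes of Rubisco and the Calvin cycle were above 0 (median 0.26), 6 without overlap. RBCS1A, the most used small subunit gene of the carbon-fixing enzyme Rubisco, had 11594, 11167 and 11266 CPM in systemic leaves and 6571, 7403 and 9801 CPM in local leaves, and RBCS1B had 1279, 1411 and 1146 CPM in systemic and 643, 641 and 908 CPM in local leaves; RBCS1B has near-identical copies that may share its reads. Of 16 chlorophyll synthesis genes, 15 were above 0 (median 0.35) and 8 had no overlap. GSA2, which makes the precursor aminolevulinate, had 154, 193 and 175 CPM in systemic and 109.7, 120.0 and 115 CPM in local leaves (log2 0.60 ± 0.16), and CHLI1, a subunit of the magnesium chelatase, had 292, 377 and 302 CPM in systemic and 216, 223 and 224 CPM in local leaves. Light-harvesting proteins were above 0 in 17 of 19 with a median of 0.31, but only 2 were free of overlap, and without the pair numbered 1 the median was -0.03. No gene of these 4 photosynthesis lists was called by edgeR with or without the block.

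Transcript length moved with the position difference, and several of these lists hold short transcripts: the median length was 1058 bases for plastid ribosomal proteins, 1186 for cytosolic ribosomal proteins and 1064 for photosystem subunits, while it was 1780 for chlorophyll synthesis and 1813.5 for the stomatal lineage. Across all tested genes the median log2 difference was 0.31 for transcripts of 501 to 750 bases, 0.00 for those of 1501 to 2000 bases and -0.16 for those over 3000 bases. The slope was steepest in the pair numbered 1, where the medians of those 3 classes were 0.44, 0.03 and -0.40. Genes with no overlap between positions had a median length of 1196 bases where systemic was higher and 2156.5 bases where it was lower, against 1740 for all genes tested. Set against the median of all genes of the same length class, the plastid ribosomal proteins stood higher by a median of 0.43, the cytosolic ribosomal proteins by 0.24, the photosystem subunits by 0.20 and the chlorophyll synthesis genes by 0.34. In the length classes of the plastid ribosomal proteins 14.2% of genes were higher without overlap, and in those of the stomatal lineage 8.40%. The genes that rose with the block had a median length of 992 bases and those that fell 1564. The part of transcript length in these results was not tested. Mesophyll marker sums, higher in systemic than in local libraries as given above, moved the same way as the photosynthesis lists, and their part was not tested either; 4 of the 5 markers are also members of those lists.

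**Figure D3:**
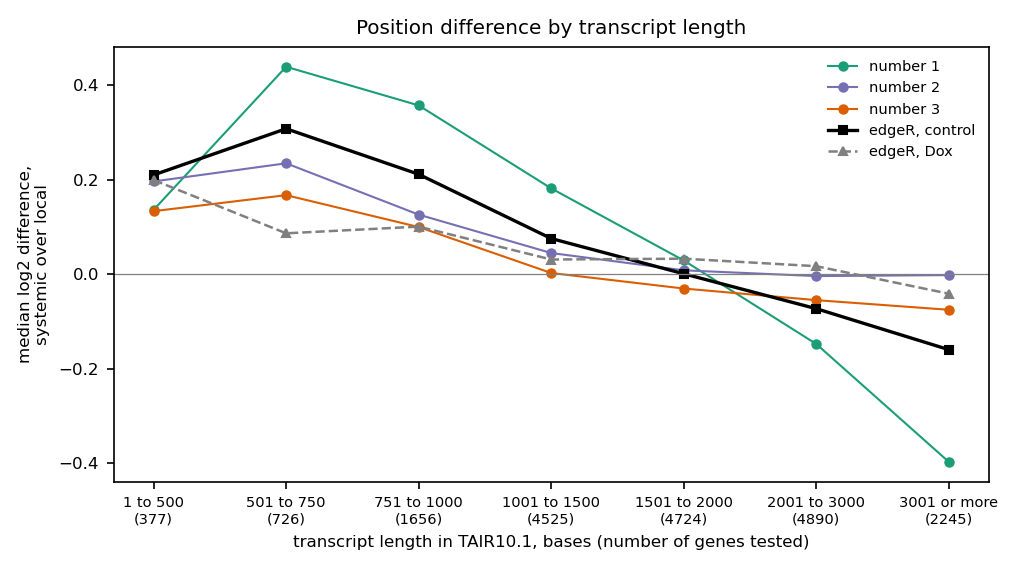
Median log2 difference, systemic over local leaves, for 7 classes of transcript length (bases, from the TAIR10.1 annotation; number of tested genes under each class), by edgeR in control plants (black) and Dox plants (grey dashes) and within each control pair (colours, log2(CPM + 0.5) scale). The control medians go from 0.31 at 501 to 750 bases to -0.16 over 3000 bases, and the pair numbered 1 has the widest span.

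Early-response regulators of touch, wounding and stress stood lower in systemic leaves. They are transcription factors and enzymes whose transcripts climb within minutes of handling, cutting or cold. Of 26 tested members, 25 were below 0 with a median log2 difference of -0.74, 2 had no overlap (CBF2 and ZAT6) and 2 fell with the block (CBF2 and CAF1b). CAF1b, a deadenylase that shortens messenger RNA tails, had 118, 72.3 and 181 CPM in systemic leaves and 218, 171 and 398 CPM in local leaves (log2 -1.09 ± 0.16, adjusted p = 0.0485, edgeR). The libraries numbered 3 stood apart in this list: 19 of the 26 members were highest in number 3 in both positions, against 25% of all genes. Among libraries 1 and 2 alone, 20 of the 26 had both systemic below both local values, against 19.5% of all genes. The list median was -1.0 without the pair numbered 3 and -0.32 without the local library numbered 3. RRTF1, a redox-responsive factor, illustrates the spread, with 21.2, 7.57 and 71.4 CPM in systemic and 23.9, 23.7 and 154 CPM in local leaves and a log2 difference of -1.01 that was 0.49 without the local library numbered 3.

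The xyloglucan enzymes, which cut and rejoin the cell wall's xyloglucan chains, also stood lower. Of 19 members, 15 were below 0 (median -0.86), 4 had no overlap, and XTH18 and XTH19 fell with the block. XTH19 had 3.07, 3.61 and 17.7 CPM in systemic and 11.1, 9.43 and 43.6 CPM in local leaves (log2 -1.49 ± 0.17), and XTH18, named after its values were seen, had 112, 60.8 and 679.9 CPM in systemic and 270.1, 168 and 1459 CPM in local leaves. The 2 genes are close copies whose reads may be divided. Without the block and without the local library numbered 3, the log2 difference of XTH18 was 0.38. XTH24 had 379.8, 85.4 and 470.3 CPM in systemic and 838, 367 and 1092 CPM in local leaves and did not pass. Here too 14 of the 19 were highest in number 3 at both positions, and leaving out the local library numbered 3 took the list median to -0.07. Alpha-expansins, which loosen walls during growth, had a median of 0.11, with 7 of 11 above 0.

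Genes of the abscisic acid, dehydration and cold response had a median of -0.48, 21 of 26 below 0, with DREB2A the one that fell with the block. COR47, a dehydrin, had 595, 341 and 585 CPM in systemic and 890.4, 964 and 1164 CPM in local leaves, without overlap (log2 -0.99 ± 0.31). LTI78, a standard marker of cold and drought, had 45.5, 21.4 and 23.9 CPM in systemic and 59.9, 118 and 43.1 CPM in local leaves, where the systemic library numbered 1 slightly exceeded the local library numbered 3. Jasmonate genes were below 0 in 20 of 25 members, with a median of -0.36, no member without overlap and none called. CYP94B3, which inactivates the jasmonate hormone, had 20.4, 2.18 and 23.7 CPM in systemic leaves and 17.9, 22.5 and 186 CPM in local leaves, and LOX4, a lipoxygenase of jasmonate synthesis, had 153, 53.4 and 649 CPM in systemic and 274, 282 and 1335 CPM in local leaves. For both the local library numbered 3 was the highest of the 6, and without it the log2 difference of LOX4 was 0.03. The pair medians of the jasmonate list were 0.18, -1.30 and -0.27, so the number 1 pair did not share the direction of the other 2.

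Genes of ER bodies and myrosinases, a store of beta-glucosidases that release toxic products when tissue is damaged, had the lowest median of the lists with 10 or more tested members, -1.04. Of 12 tested, 10 were below 0, and 5 were lower and 1 higher without overlap. Without the pair numbered 3 the median was -0.97. Summed over the 12, levels were 6388, 5318 and 5615 CPM in systemic and 5245, 6991 and 4931 CPM in local libraries. The sum thus overlapped between positions and did not share the direction of the median. PYK10, the main ER body glucosidase, had 77.4, 1.65 and 55.7 CPM in systemic leaves and 239, 184 and 179 CPM in local leaves. NAI2, which is needed to form ER bodies, had 30.5, 3.66 and 16.9 CPM in systemic and 78.7, 44.7 and 57.6 CPM in local leaves. PBP1, a lectin that binds PYK10, had 122, 18.2 and 50.3 CPM in systemic and 213, 153 and 130.2 CPM in local leaves. In all 3 genes the systemic library numbered 2 was far below the rest, and the other systemic libraries were still below every local one. BGLU18, an ER body enzyme that also frees stored abscisic acid, overlapped, with 722, 72.3 and 141 CPM in systemic and 1236, 714 and 241 CPM in local leaves. None of the 12 passed with the block (adjusted p = 0.0783 for NAI2 and 0.188 for PYK10, edgeR); JAL34, described above, is not a member of this list. Leaving out pair 2 took the list median to -0.71.

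Aliphatic glucosinolate synthesis, which makes sulfur defence compounds from methionine, was below 0 in 17 of 19 genes (median -0.45), with 3 lower and 1 higher without overlap and none called. BCAT4, the aminotransferase that starts the chain, had 21.6, 24.1 and 44.8 CPM in systemic and 58.7, 58.3 and 58.3 CPM in local leaves. CYP83A1, a later step, had 63.9, 70.6 and 106 CPM in systemic and 121, 125 and 126 CPM in local leaves. Both were separate between positions, though in each the systemic library numbered 3 lay nearest the local level. The pair medians of the list were -0.84, -0.56 and 0.05. Indole glucosinolate and camalexin genes had a median of -0.39 over 13 members, with none called; CYP81F2, which modifies indole glucosinolates, had 68.5, 23.6 and 139.6 CPM in systemic and 111, 93.9 and 361 CPM in local leaves.

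Lists tied to the theme of the series, systemic acquired resistance and mitochondrial stress, had medians near 0 in control plants. Of 25 salicylic acid and systemic acquired resistance genes, 13 were above 0 (median 0.09; -0.75 without the pair numbered 1). PR1, the classic marker of salicylic acid defence, rose with the block (log2 4.70 ± 0.63, adjusted p = 0.0436, edgeR). Its level was 29.4, 1.26 and 1.81 CPM in systemic leaves and 0.716, 0.236 and 0 CPM in local leaves, so one systemic library stood far above the other 5. FMO1, which makes the mobile defence signal N-hydroxypipecolic acid, was high in the same library, at 20.1, 0.0435 and 0 CPM in systemic and 0.143, 0.424 and 0 CPM in local leaves. ALD1, an earlier enzyme in that route, had 8.75, 0.0871 and 0 CPM in systemic and 0.287, 2.45 and 0.119 CPM in local leaves. Without the systemic library numbered 1 the log2 difference was 2.18 for PR1, -2.81 for FMO1 and -4.24 for ALD1, so the direction of FMO1 and ALD1 rests on that library, as did that of AOX1D (-1.12 without it). The mitochondrial dysfunction stimulon, nuclear genes induced when respiration is impaired, had 9 of 17 above 0 and a median of 0.05. AOX1D, an alternative oxidase, had 9.32, 0.827 and 0.465 CPM in systemic and 1.24, 2.64 and 0.237 CPM in local leaves, and BCS1, a mitochondrial outer membrane ATPase of this set, had 232, 131 and 629 CPM in systemic and 509.5, 618 and 855 CPM in local leaves. The list medians were -0.19 for 19 heat shock genes, -0.08 for 16 endoplasmic reticulum folding genes and -0.25 for 8 antioxidant enzymes, with no call.

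Genes carried on the mitochondrial genome were below 0 in 62 of 63 tested, with a median of -0.75. The value rests largely on the libraries numbered 3: the pair medians were 0.19, -0.56 and -1.06, 34 of the 63 were highest in number 3 at both positions, and without the local library numbered 3 the median was -0.08. Plastid-genome genes were above 0 in 54 of 74 (median 0.21), and -0.24 without the pair numbered 1. How the library kit captured organelle transcripts is not given in the sources used here.

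Clock genes follow the hour of harvest. Day and evening clock genes had a median of -0.14 and morning genes -0.32, with no call. GI, an evening gene, had 24.3, 12.7 and 9.0 CPM in systemic and 43.8, 50.6 and 23.3 CPM in local leaves, where the systemic library numbered 1 slightly exceeded the local library numbered 3. PIF4, a growth-promoting factor of warmth and shade, had 38.7, 21.8 and 26.1 CPM in systemic and 53.6, 46.3 and 62.4 CPM in local leaves, and PIL6, its relative also known as PIF5, had 60.6, 44.1 and 48 CPM in systemic and 85.2, 98.2 and 80.8 CPM in local leaves, both without overlap. NRT1.7, a transporter that moves nitrate out of old leaves through the phloem, had 62.5, 78 and 87 CPM in systemic leaves and 164, 101 and 104 CPM in local leaves (log2 -0.70 ± 0.23). SWEET11, which exports sucrose toward the phloem, had 85.4, 128 and 108 CPM in systemic and 217, 151 and 141 CPM in local leaves. All 3 systemic values were below the local ones for both, and neither passed. Their direction was not that of whole lists: the nitrate response list had a median of -0.12, with 4 of 14 above 0 and 2 lower without overlap. The vascular marker list had a median of -0.05, with 5 of 12 above 0 and 1 lower without overlap. It summed to 378 to 652 CPM in systemic and 607 to 762 CPM in local libraries. Epidermis and wax genes had a median of -0.39 despite PDF1 at its top, with KCS1, a wax elongase, at 229, 164 and 282 CPM in systemic and 356, 364 and 430.1 CPM in local leaves, and sums of 2129 to 2615 CPM in systemic and 2597 to 3499.8 CPM in local libraries. Reference genes used in quantitative PCR had a median of -0.09; ACT8 among them was at 379.8, 208 and 233 CPM in systemic and 381, 406 and 409 CPM in local leaves. The remaining lists (darkness and sugar starvation, sugar-induced, auxin repressors, brassinosteroid and gibberellin synthesis, ethylene, light and shade, flavonoid, iron, phosphate and nitrate) had medians between -0.30 and 0.27, with EXL4 their one call.

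The systemic over local comparison in Dox plants shares no library with the control comparison and is set beside it here. In Dox plants the local leaves had been given Dox, while the systemic leaves carry no dose label. Leaf position and direct Dox treatment therefore cannot be told apart in that comparison. By edgeR, 0 genes were higher and 1 was lower in Dox systemic leaves at an adjusted p of 0.05 (0% and 0.00515%), with 1490 higher and 1990 lower at an unadjusted p under 0.05 (7.68% and 10.3%), and DESeq2 called 203 higher and 369 lower. Of all tested genes 63.6% had the same sign in control and in Dox plants, and of the 1334 genes with an unadjusted p under 0.05 in control plants 79.1% did. Of the 70 genes called with the block in control plants, 39 of the 44 that rose and all 26 that fell had the same sign in Dox plants. Of the 1559 genes higher without overlap in control plants, 351 (22.5%) were also higher without overlap in Dox plants, where 11.9% of all genes were, and 23 were lower without overlap. Of the 963 lower genes, 133 (13.8%) were lower without overlap in Dox plants, against 11.8% of all genes, and 15 were higher.

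AT7SL-1 was again higher in Dox systemic leaves, at 47.7, 60.1 and 61.3 CPM, than in Dox local leaves, at 23.3, 18.3 and 30 CPM. CBF2 had 10.8, 12.5 and 12.8 CPM in Dox systemic and 30, 15.5 and 24.9 CPM in Dox local leaves. TMM stood at 1.22, 1.68 and 2.43 CPM in Dox systemic and 0.833, 0.489 and 0.611 CPM in Dox local leaves. The lists of the stomatal lineage (median 1.62 in control and 1.37 in Dox plants), SAUR genes (1.63 in control, 1.89 in Dox), type A response regulators (1.0 in control, 0.74 in Dox), cell division (0.74 in control, 0.67 in Dox), xyloglucan enzymes (-0.86 in control, -1.07 in Dox) and touch genes (-0.74 in control, -0.88 in Dox) had medians of the same sign in both sets of plants. With TMM factors the medians of the chloroplast lists differed in sign: plastid ribosomal proteins stood at 0.52 in control and -0.04 in Dox plants, photosystem subunits at 0.34 in control and -0.36 in Dox, and Rubisco and Calvin cycle genes at 0.26 in control and -0.43 in Dox. PRPL28 had 60.5, 72.5 and 64.6 CPM in Dox systemic and 65.5, 68.3 and 66.9 CPM in Dox local leaves, and PSAK had 748, 1245 and 836 CPM in Dox systemic and 1682, 843 and 1307 CPM in Dox local leaves. Neither difference between control and Dox plants passed in the interaction (log2 0.76 ± 0.24 for PRPL28 and 1.06 ± 0.39 for PSAK, control minus Dox; adjusted p = 0.832 and 0.832, edgeR). The Dox medians depend on the scaling: with total counts alone the median of all genes in Dox plants was 0.31, against 0.02 with TMM factors, and the plastid ribosomal proteins, photosystem subunits and Rubisco and Calvin cycle genes stood at 0.25, -0.04 and -0.14. With TMM factors, 17 of the 28 plastid ribosomal proteins had an unadjusted interaction p under 0.05 (edgeR). So did 8 of the 27 photosystem subunits and 5.2% of all genes. These counts too may depend on the scaling: the median interaction of all genes was 0.01 with TMM factors and -0.24 with total counts alone. Over all genes, the interaction gave 0 calls by edgeR in either direction (smallest adjusted p = 0.832), 0 calls by limma voom and 1 by DESeq2 (0.004% of genes with an adjusted p).

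**Figure D4:**
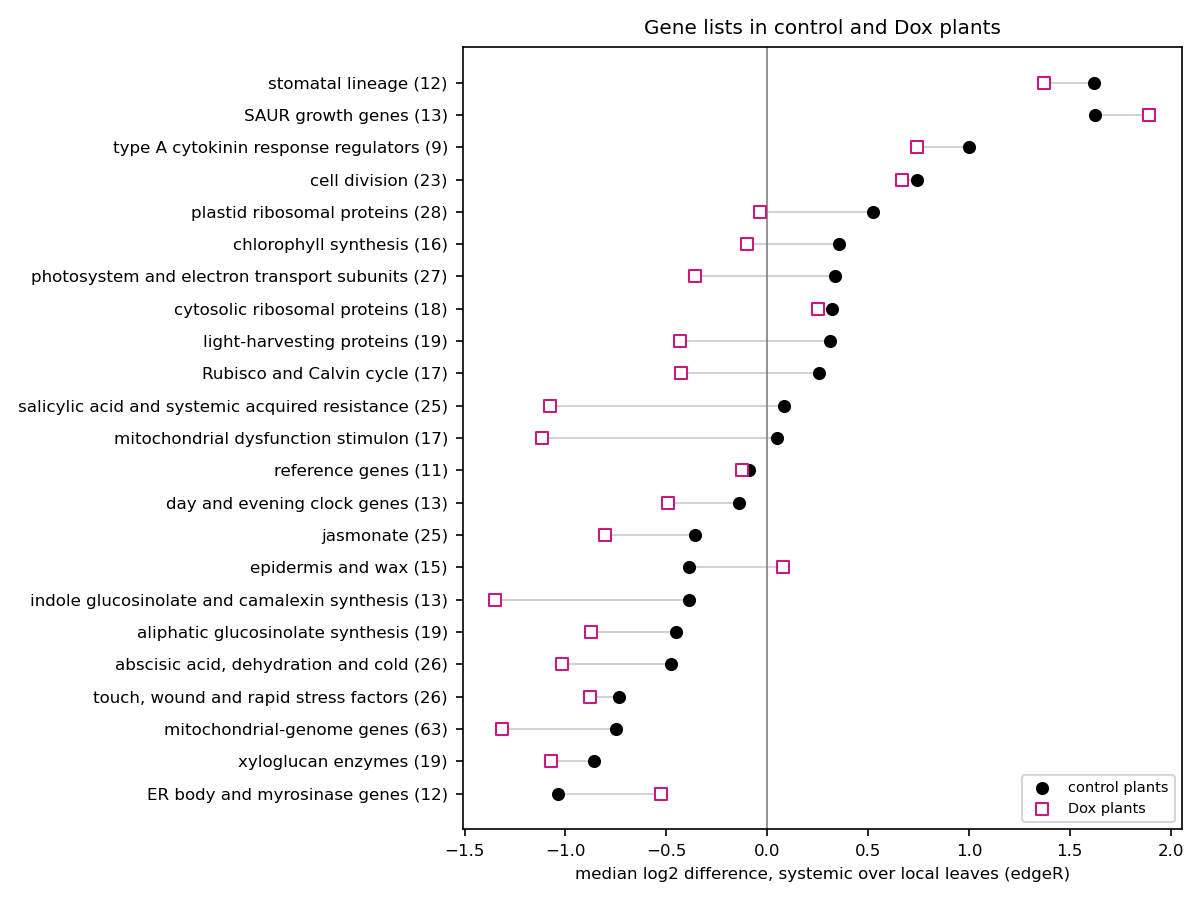
Median log2 difference by edgeR, systemic over local leaves, of 23 gene lists in control plants (black circles) and Dox plants (open squares), which share no library. In Dox plants the local leaves had been given Dox, so leaf position and Dox cannot be told apart there. The growth lists at the top and the touch, xyloglucan and ER body lists at the bottom keep their side of 0; with TMM factors the chloroplast lists lie right of 0 in control plants and left of it in Dox plants, where total counts alone put the plastid ribosomal proteins at 0.25 and chlorophyll synthesis at 0.21.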

How the data were processed

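RNA was sequenced from leaves in 4 samples, each deposited with 3 count columns, and each column was treated as 1 library. Per the submitters' processing notes, the tools were FastQC 0.11.9 and Trimmomatic 0.39 for the reads, with HISAT2, featureCounts 1.6.3 and DESeq2 also named. The notes name no genome build, and the strand setting is not stated. The deposited values are raw read counts per gene, with no normalization. Gene symbols, products and transcript lengths came from RefSeq's TAIR10.1 annotation, which matched 32548 of 32833 numbered loci; a further 149 identifiers are not numbered loci.

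The counts were joined by locus and scaled with TMM factors, and genes were kept by filterByExpr with a minimum count of 10. The main test was edgeR 4.0.16's quasi-likelihood test on 4 group means over all 12 libraries (R 4.3.3), with Benjamini-Hochberg adjustment over all genes tested and a threshold of 0.05. DESeq2 1.42.0, limma 3.58.1 with voom, other scaling factors, no filter, fits without single libraries or pairs and fits with the column number as a replicate block were alternatives, and the steps were tested on simulated data. The block with 6 libraries leaves 2 residual degrees of freedom. The SE printed with edgeR values was not estimated by the fit. It was worked back from the test, as the size of the log2 difference over the square root of its F statistic. The labels do not say that equal column numbers mark the same plants. Same-numbered control libraries deviated from their group means together, with correlations of 0.29, 0.40 and 0.70 across genes, all above 0.1, against -0.53 to 0.22 between unequal numbers, and were therefore taken as pairs. Systemic 1 with local 2 gave 0.18 and systemic 2 with local 1 gave 0.22, also above 0.1, so the rule could not establish pairs 1 and 2. The pairing was read from the same counts that the block fit then tested. In Dox plants the same-numbered correlations were -0.10, -0.01 and 0.00, and did not meet the rule for pairing. The block fit over all 12 libraries paired the Dox libraries by number all the same.

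No libraries agreed within sampling noise (chi-square per gene of 26.6 or more between columns of a control sample). Differences within pairs are of log2(CPM + 0.5). Genes named in the text were those called, the 10 highest and 10 lowest differences among genes at 10 CPM or more without overlap, the 4 largest differences in each list among members of 1 CPM or more, and up to 10 per direction in the block fit; others are said to have been named after their values were seen. The comparison, the gene lists (725 loci in 47 lists) and the tests were chosen with earlier results of these data known.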

Additional observations from a re-analysis of the deposited data

Results flagged for a closer look

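CRK4, a cysteine-rich receptor-like kinase, is listed because its position difference was unlike in control and Dox plants by a test of that difference in DESeq2 (interaction log2 1.19 ± 0.23, SE, control minus Dox, adjusted p = 0.00477), 1 call among all genes with an adjusted p. Its level was 168, 159 and 186 CPM in control systemic and 229, 215 and 263 CPM in control local leaves, and 83.4, 95.9 and 80.3 CPM in Dox systemic and 245, 258 and 319.6 CPM in Dox local leaves. Systemic leaves were below local leaves without overlap in both sets of plants, with log2 differences of -0.46 ± 0.16 in control and -1.66 ± 0.17 in Dox plants. By edgeR the interaction did not pass (log2 1.2 ± 0.23, adjusted p = 0.832).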

How the results depend on the processing

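Without a replicate block, edgeR called 1 gene higher in control systemic leaves with upper-quartile factors, 1 with total counts only and 1 without the filter, against 0 with TMM factors; leaving out any 1 library gave 0 calls in both directions. DESeq2 gave 48 higher and 5 lower, and the replicate block in the 6 control libraries 44 higher and 26 lower. In that block fit the counts were 0 higher and 0 lower with DESeq2's factors, with total counts only, without pair 1 and without pair 3; 244 higher and 206 lower without pair 2; 151 and 196 without the filter; 306 and 571 by DESeq2; and 56 and 54 by limma voom. A block over all 12 libraries gave 0 in both directions in control plants, and 17 higher and 80 lower in Dox plants. Those Dox counts rest on a pairing by number that the Dox correlations did not bear out. In Dox plants DESeq2 called 203 higher and 369 lower, and total counts only gave 0 lower. The interaction had 1 call by DESeq2. Of 720 list medians under the alternatives, 12 moved by more than the spread between libraries. Without pair 1 the medians were -0.52 for senescence (0.00021 without systemic 2), 0.51 for alpha-expansins (0.024 without local 3) and -0.24 for plastid-genome genes (0.58 without pair 3). With libraries left out, the median ran from -1.10 to -0.072 for xyloglucan enzymes and from -0.40 to -0.034 for phosphate starvation (highest without local 3 in both), from -1.09 to 1.08 for 3 trichome markers (-0.85 without systemic 3, -0.06 without local 2) and from -0.19 to 1.23 for 3 flower markers (0.26 without systemic 2, 0.11 without systemic 3). Of the named genes, 6 changed sign. Without systemic 1 and without pair 1, FMO1 stood at -2.81 and -2.99 (up to 6.90 without pair 2), ALD1 at -4.24 and -4.68 (up to 4.36) and AOX1D at -1.12 and -1.19 (up to 2.69). Without local 3, LOX4 stood at 0.033, XTH18 at 0.38 and RRTF1 at 0.49, against -2.62, -2.87 and -2.23 without systemic 3. The cause was not tested. Fits without pairs and the alternatives to the block fit were chosen after seeing the data. Without both libraries numbered 3 the unpaired test also gave 0 calls (smallest adjusted p = 0.129, edgeR). Levels under 1 CPM rest on about 23 reads or fewer per library.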
